A study of Nicotiana tabacum with 6 samples.

Results

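The subject here is a list of 44 array probes, carrying 42 transcript identifiers. These probes gave clear signal in wild-type tobacco cells of the line SL and none well above background in the aluminium-tolerant line ALT301. They were drawn from 43759 transcript probes (40425 identifiers) on a 1-colour Agilent array. A probe was taken when none of the 3 ALT301 arrays and each of the 3 SL arrays carried the scanner software's mark for a signal well above background, and when its mean level over the SL arrays was at least -3. A level is the log2 processed signal minus the 75th percentile of the transcript probes of the same array, so that 0 is the 75th percentile. The list was therefore chosen on the comparison of ALT301 with SL itself, and the differences between the lines given below for its members are descriptions without a test.

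ALT301 was represented by 3 arrays of total RNA from suspension-cultured Nicotiana tabacum cells labelled as aluminium tolerant, and SL by 3 arrays of total RNA from cells labelled wild-type. The series title calls the lines an isogenic pair, and the labels do not say how ALT301 was obtained or whether it is a single clone. Both lines were labelled as logarithmic-phase cultures under normal conditions, kept in the dark in modified Murashige-Skoog medium, and no aluminium treatment is named. The labels number the replicates 1 to 3 without saying whether they were separate cultures, so the spread between arrays may be technical.

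Aluminium ions dissolve in acid soil, bind to cell walls and membranes and stop root growth. Plants are known to limit the damage by secreting organic acids that bind the ion, by altering the cell wall, by moving the ion into vacuoles and by controlling oxidative stress, and cultured cells are used to study these responses without the organisation of a root. Tobacco is an allotetraploid, so that many of its genes exist as near-identical copies from the parental genomes, and a probe can match 1 copy or several. The files give every probe its own name and the identifier of a sequence record. Of the 40425 identifiers on the whole array, 0 matched the RefSeq gene table of the assembly ASM71507v2, the 42 of the list included, so the transcripts are given by identifier and no function is assigned to them.

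Across the 6 arrays, between 68.0% and 70.8% of the transcript probes were well above background, and array medians of the processed signal ran between 248.7 and 325.3 intensity units. Most probes that were bright in SL were also detected in ALT301. Of 20424 probes well above background on all 3 SL arrays with a mean level of at least -3, 20348 passed that mark on every ALT301 array, 17 on 2 of the 3 and 15 on 1. The 44 probes of the list are the remaining 0.215%. At any level, 623 of the 43759 probes (1.42%) were detected by that mark on no ALT301 array and on each SL array, so most probes detected only in SL were dimmer than the limit of the list. With the lines exchanged, the same rule gave 117 probes seen in ALT301 and not in SL, out of 20304 bright ALT301 probes. At any level the exchanged rule gave 547 of the 43759 probes, fewer than the 623 of SL. Which line had more such probes thus depended on the level limit, and these differences in number were not tested.

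Among probes with higher signal in SL, the share that met the rule was smaller. Of 10921 probes with a mean SL level of at least 0 that were well above background on all SL arrays, 9 (0.0824%) belonged to the list. The list further held 10 probes between 0 and -1, 8 between -1 and -2 and 17 between -2 and -3. Its median level in SL was -1.19, and that of the 117 probes seen only in ALT301 was -1.28. The processed signals of the members ran between 4.04 and 33.1 intensity units over the 3 ALT301 arrays, against 369.8 to 22339 over the 3 SL arrays. In sum the 44 probes made up 0.000138% to 0.000197% of the processed signal on the ALT301 arrays and 0.0432% to 0.0468% on the SL arrays. In a culture extracted whole, fewer cells that make a transcript and less of it per cell cannot be told apart.

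For every member the lowest SL array lay above the highest ALT301 array, by at least 4.15 log2 units. Among all 30942 probes tested, 39.4% had all 3 ALT301 arrays below all 3 SL arrays. By limma, 44 of 44 members were called lower in ALT301 at an adjusted p below 0.05, where 37.0% of all tested probes were. Scaled on the E1A spike-in probes, an alternative chosen after seeing the data, the call took in 11.6% of all tested probes as lower and 7.52% as higher, against 37.0% and 34.3% here, so that 60.6% of calls were lower in place of 51.9%. Mean log2 E1A signal was 10.41 to 10.71 on replicates 1 and 2 of both lines, and 11.43 and 11.45 on replicate 3 of ALT301 and SL. Such scaling adds the spread of the spike-in signal to every probe. The median fitted difference, ALT301 minus SL, was -7.40 log2 units over the members and -0.03 over all tested probes. All members passed the filter on dim probes through their 3 SL arrays alone, and the rule fixed the direction, so nothing is read from these counts.

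Because ALT301 was below the detection mark, each difference is better stated as a lower bound. For it, the mean SL level was set against the mean over the ALT301 arrays of the probe's own level or the lowest level that passed the detection mark on the same array, whichever was higher. The bounds ran between 19.2-fold and 808-fold, with a median of 66.2-fold. 23 members had a bound of at least 64-fold. Bounds of at least 16-fold, which were found for 8.51% of the 623 probes detected only in SL, held for all 44. That follows largely from the rule, since a level of -3 already lies that far above the lowest detected levels. Only a member's own ALT301 level above that floor could make its bound smaller.

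4 probes gave far higher signal in SL than the other members, between the 86.9th and 91.9th percentile of all probes there. The signal also depends on the probe, so this is an order of probes and does not rank the transcripts by abundance. Probe A_95_P124082, of identifier TA15549_4097, had processed signals of 16.9, 12.9 and 19.1 intensity units in ALT301, against 19197, 22339 and 15473 units in SL. Its mean level in SL was 2.42 ± 0.16 (SD, n = 3), which ranked 3558 of 43759 probes, and the bound on its difference was 808-fold. A second probe, of identifier NP916736, A_95_P006841, had 17.7, 16.5 and 13.3 units in ALT301, against 18592, 21548 and 15537 units in SL. In both of these probes SL replicate 3 was the lowest SL array, and the ALT301 signals were faint on every array.

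For identifier DW003182 (probe A_95_P010431) the signals were 4.79, 4.07 and 4.41 units in ALT301, against 16392, 19842 and 16089 units in SL. The level in SL, 2.31 ± 0.01 (SD, n = 3), was among the most even of the list, and no ALT301 array gave a signal that the software marked as positive and significant. It had the lowest fitted difference of the list, -11.84 log2 units, although its bound of 747-fold was smaller than those of TA15549_4097 and NP916736 (808-fold and 791-fold). A fitted difference depends on the value given to an array without signal, and the bound does not. Identifier DW002468 (probe A_95_P021611) had 26.3, 10.6 and 15.6 units in ALT301, against 9753, 12185 and 9194 units in SL, with a bound of 427-fold. After it the list drops by more than 1 log2 unit to the fifth probe.

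The next 8 probes had mean SL levels between 0.32 and -0.41, close to the 75th percentile of the array. Of these, A_95_P025216 (identifier AB000623) had 29.1, 16.5 and 14.6 units in ALT301, against 5239, 4085 and 3968 units in SL. Probe A_95_P214087 (TA20186_4097) had 5.05, 4.25 and 4.50 units in ALT301, against 3467, 4757 and 3211 units in SL. SL replicate 1 was the highest SL array for AB000623 and replicate 2 for TA20186_4097, so the 2 transcripts were not highest on the same array.

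TA19205_4097 (A_95_P018391) gave 7.14, 4.49 and 4.56 units in ALT301, against 3517, 3926 and 3568 units in SL. FG638377 (A_95_P303538) gave 6.57, 5.51 and 7.97 units in ALT301, against 3370, 4123 and 3420 units in SL, and was the most even member of the list in SL, with a level of 0.04 ± 0.01 (SD, n = 3). EB446055 (A_95_P142617) gave 10.9, 11.9 and 15.0 units in ALT301, against 3231, 4162 and 3419 units in SL. The bounds of these 3 probes lay between 154-fold and 158-fold.

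BP535422 (A_95_P100548) had 33.1, 6.14 and 14.2 units in ALT301, against 2871, 4259 and 3363 units in SL. Its 33.1 units on ALT301 replicate 1 were the highest ALT301 signal of any member, and its bound was 133-fold. EB430353 (A_95_P130337) had 5.53, 4.82 and 4.62 units in ALT301, against 3041, 3749 and 3164 units in SL, and DW003948 (A_95_P018771) had 5.02, 4.32 and 4.42 units in ALT301, against 2415, 2622 and 2919 units in SL. Neither of these had a positive and significant signal on an ALT301 array, and their bounds were 142-fold and 114-fold.

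The members lower in the order differ from these in degree. The 7 that complete the range down to a level of -1 in SL carry the identifiers CV017750, TA19327_4097, EB443650, FG627042, EH615151, EB425199 and EB433828, with mean SL levels between -0.41 and -0.90 and bounds between 114-fold and 80.8-fold. The 8 between -1 and -2 carry TA21355_4097, EB431366, EH621296, TA18764_4097, AB000623 (its second probe), TA19168_4097, EH621718 and FG133548, with bounds between 70.6-fold and 45.6-fold. The bound of EH621718 rests on SL replicate 1, and was 46.2-fold with all arrays and 24.7-fold without it. The 17 dimmest include CV020252, BP129624, BP528385, TC161477, FS404083, EB430595, EB430315, BP132951, TA12063_4097, FG638725, TA17058_4097 and DW002393, a second probe of EH621296, and A_95_P306413, which carries only its probe name. All 17 had bounds between 32.8-fold and 19.2-fold.

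Just inside the limit lay EH615714 (A_95_P220367), TA12159_4097 (A_95_P030216) and TC150079 (A_95_P281753), at mean SL levels of -2.95, -2.96 and -2.98. The probes just outside it that met the detection part of the rule were BP532221 (A_95_P093333), AJ271748 (A_95_P217572) and BP132023 (A_95_P261406), at -3.03, -3.04 and -3.05. The SL levels therefore run on without a gap across the limit, which is a choice and not a boundary in the data.

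Not every member was without any signal in ALT301. The scanner software also marks spots whose signal is positive and significant, a more lenient mark than well above background. By that mark 21 of the 44 members (47.7%) gave a signal on all 3 ALT301 arrays, 1 on 2 arrays, 7 on 1 array and 15 (34.1%) on none. Among the 9940 probes that were well above background on no array of either line, 24.3% carried the mark on all 3 ALT301 arrays and 39.3% on none. Presence in SL alone was therefore not shown for the 21 that carried the lenient mark on every ALT301 array, nor for those with it on 1 or 2. For the 15 without it the ALT301 values give only a bound.

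The 21 members with such a signal on every ALT301 array read 5.67 to 33.1 units there, and included TA15549_4097, NP916736, DW002468 and both probes of AB000623. Their median SL level was -1.34, and that of the 15 without the mark was -1.12. For the 60 of 132 ALT301 values without the mark, the processed signal lay within 1% of its own error estimate, so these values are a floor set by the software and have no order. Before background subtraction, the median member spot read 79.2, 64 and 84 units on the 3 ALT301 arrays, against 1432, 1487 and 1316 units on the 3 SL arrays. The 153 negative-control spots of the ALT301 arrays had medians of 62, 53.5 and 70 units, and 19, 18 and 17 of the 44 members read at or below their 95th percentile. The highest negative-control spots read 166, 156 and 106 units there, and on each ALT301 array 44 of 44 members were at or below that reading, whereas on each SL array 44 of 44 were above the highest negative control. Probes well above background on no array had medians of 73.5, 62 and 82 units on the ALT301 arrays, close to the members.

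Replicate SL arrays were close for most members. The median SD over the 3 SL arrays was 0.12 log2 units, against 0.07 for all 20424 bright SL probes, and 40 of the 44 members spanned less than 0.5 log2 units. SL replicates 1, 2 and 3 were the highest array for 15, 14 and 15 members, and the median deviation of a member from its SL mean was 0.0025, 0.03 and -0.01 on these arrays. No SL array therefore stood apart for the list as a whole.

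Only 2 members had an SD above 0.5, and in both SL replicate 1 was high. Probe A_95_P004596 (EH621718) had signals of 30.2, 5.73 and 10.5 units in ALT301, against 3815, 665 and 627 units in SL. Its SL level was -1.59 ± 1.57 (SD, n = 3), and it was the only member whose SL arrays spanned more than 1 log2 unit, as 0.681% of the bright SL probes did. Without SL replicate 1 its bound was 24.7-fold, against 46.2-fold with all arrays, and no other bound of the list moved by more than 1.5 times when 1 array was left out. Probe A_95_P006791 (EB431366) had 6.06, 5.04 and 4.76 units in ALT301, against 2329, 1497 and 1204 units in SL. Replicate 1 was also the highest ALT301 array for EH621718, below the detection mark, and the ALT301 values of EB431366 were all at the software's floor.

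Other probes of the same identifiers gave a view that the rule did not choose, although they share the arrays, the comparison and the identifier. 35 of the 42 identifiers had 1 probe on the array. AB000623 and EH621296 each had 2 probes, all of them in the list, and 5 identifiers had a further 6 probes outside it. By limma 4 of these 6 were called lower in ALT301 and 1 higher, where 37.0% of all tested probes were called lower. Of the 4, A_95_P005351 and A_95_P008156 were well above background on no ALT301 array. They passed the filter on dim probes through their SL arrays alone, as the members did, so nothing is read from their calls. Under the spike-in scaling the same 4 probes were called lower, where 11.6% of all tested probes were, and none was called higher. There too the calls of A_95_P005351 and A_95_P008156 are not read.

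Both probes of AB000623 were dim in ALT301 and bright in SL. The second, A_95_P121212, had 28.1, 16.2 and 23.1 units in ALT301, against 1498, 1232 and 1437 units in SL. In both probes ALT301 replicate 1 was the highest ALT301 array and SL replicate 2 had the lowest SL level. For EH621296, probe A_95_P162367 had 6.82, 5.77 and 5.34 units in ALT301, against 1482, 1816 and 1407 units in SL. Its partner A_95_P162352 had 4.79, 4.05 and 4.41 units in ALT301, against 436.7, 531.9 and 407.9 units in SL. Neither EH621296 probe had a positive and significant signal on an ALT301 array.

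3 further identifiers had outside probes that also went down. For FG627042, the outside probe A_95_P261736 had 32.1, 16.7 and 27.7 units in ALT301, against 1851, 2185 and 1621 units in SL. It was well above background on 2 ALT301 arrays, which kept it off the list, and its fitted difference was -6.15 ± 0.21 log2 units (SE, limma, adjusted p = 3.56e-06). With the replicate number as a block its SE was 0.19 (limma, adjusted p = 0.00014). TA12063_4097 had 2 outside probes. A_95_P003741 read 39.6, 6.67 and 7.54 units in ALT301, against 429.3, 574.3 and 426.0 units in SL, and passed the detection mark on ALT301 replicate 1 alone. A_95_P005351 read 8.90, 6.13 and 4.36 units in ALT301, against 320.8, 510.6 and 329.3 units in SL, and missed the level limit at -3.22. TA17058_4097 had the outside probe A_95_P008156, with 5.15, 4.45 and 4.50 units in ALT301, against 62.6, 70.4 and 59.5 units in SL, a bound of only 2.75-fold because it was dim in SL too. By limma A_95_P261736 and A_95_P003741 were called lower in ALT301, as 37.0% of all tested probes were. The members, A_95_P005351 and A_95_P008156 passed the filter on dim probes through their SL arrays alone, so nothing is read from their calls.

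2 identifiers had an outside probe that stayed bright in ALT301. The member with the highest SL signal, A_95_P124082, shares TA15549_4097 with A_95_P192872, which read 3351, 3258 and 2985 units in ALT301, against 2595, 3188 and 2492 units in SL. That outside probe was 1.25-fold higher in ALT301 (difference 0.32 ± 0.07 log2 units, SE, limma, adjusted p = 0.0062), with the 3 ALT301 levels above the 3 SL levels. With the replicate number as a block the SE was 0.06 (limma, adjusted p = 0.0116). The call was lost under the spike-in scaling (0.16 ± 0.52 log2 units, SE, limma, adjusted p = 0.891), where all 6 outside probes had the same SE. Under 1 identifier, 1 probe was thus not well above background on any ALT301 array and another was well above background on all 6 arrays. Whether the probes lie on different transcript copies or different parts of 1 transcript was not tested, since probe sequences were not used here.

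For EH621718, whose member varied most in SL, the outside probe A_95_P113789 read 9898, 2390 and 3641 units in ALT301, against 10750, 1673 and 1605 units in SL. It was well above background on all 6 arrays and did not pass the test (difference 0.63 ± 0.92 log2 units, SE, limma, adjusted p = 0.567). With the replicate number as a block the SE was 0.30 (limma, adjusted p = 0.136), and the probe was still not called. In both lines replicate 1 was the highest array for this probe, as it was for the member A_95_P004596. The high value on SL replicate 1 was therefore seen by both probes of EH621718, and the line difference by 1 of them.

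The arrays lay on 2 slides, with replicates 1 and 2 of both lines on slide 1 and replicate 3 of both on slide 2. The rule applied to slide 1 alone took 54 probes, 43 of them members of the list. On slide 2, which that choice had not used, all 54 were well above background on the SL array and 10 were so on the ALT301 array, which left 44 with the same detection pattern. With 1 array of each line on slide 2 there is no test of this. The 43 members have that pattern on slide 2 by the rule of the list. The share of all probes that kept their marks on slide 2 is not given, so nothing is read from these counts.

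The members were scattered over the array, in rows 2 to 526 of 532 and columns 9 to 83 of 85, and the closest spots of any pair of members were 4 rows or columns apart. None of the 44 probes had a spot flagged as uneven or outlying on any array, and each had a single spot per array. By the letters that open their identifiers, 10 members (22.7%) began with TA, 8 (18.2%) with EB, 5 (11.4%) with EH and 4 each (9.09%) with BP, DW and FG. Among the 20424 bright SL probes the shares were 22.9% for TA, 22.3% for EB, 5.06% for EH, 13.6% for BP, 4.14% for DW and 10.5% for FG. With so few members per prefix these shares are a description.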

How the data were processed

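Per the file headers, the scanner files (1 per array) come from Agilent Feature Extraction, version 11.5.1.1. Their deposited intensities are background-subtracted within the array, per the file headers, and carry no scaling across arrays. How the authors made their deposited log2 table is not stated; its ALT301 minus SL differences for the members matched those of the 75th percentile scaling to within 0.000623 log2 units. The detection marks are the software's 0 or 1 flags. No spot of a transcript probe was saturated.

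Control spots were left out, spots of 1 probe averaged on the log2 scale, and flagged spots (14 to 56 probes per array) set missing in the fit. Of 43759 probes, the 30942 well above background on at least 3 arrays were fitted with limma 3.58.1 in R 4.3.3 (two-sided, 1 term for the line), p-values were adjusted by Benjamini-Hochberg over all of them, and the threshold was 0.05. Precision is limited by the number of arrays.

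The members, the lists and the rule for naming probes (the 12 with the highest SL level, the 3 on each side of the limit, shared identifiers, probes whose partner stayed detected, the 2 most variable) were chosen with earlier results of these data known. Other members were named by identifier to account for the whole list. The planned gene and marker lists could not be used without gene names. Same-numbered arrays of the lines deviated together from their line means (r = 0.33, 0.14 and 0.1048, each above a limit of 0.1), which meets the limit set for pairing from the values and the labels' numbering. Arrays with unlike numbers had r between -0.21 and 0.087, so the lowest same-numbered value was only slightly above the highest of these. Unless an alternative is named, the SEs and p-values given come from the fit without pairs. The fit with the replicate number as a block was an alternative. Alternatives covered scaling, background, filters, blocks and each array left out. Every per-sample column was mapped.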

Additional observations from a re-analysis of the deposited data

How the results depend on the processing

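The size of the list depends on its limits. It held 27 probes with a mean SL level of at least -2, 79 with at least -4 and 15 when the lenient detection mark had to be absent from every ALT301 array. Scaled on the median, which lies far below the 75th percentile, the same limit of -3 took in 507 probes, all 44 members among them. With each array left out in turn it held 44 to 54. The median bound was 66.2-fold, 141.7-fold with the floor at the 95th percentile of the negative controls, 74.1-fold under scaling on the E1A spike-in probes (an alternative chosen after seeing the data) and 59.6-fold to 67.3-fold with 1 array left out, the lowest without SL replicate 1. The spike-in scaling moved the median difference of all tested probes from -0.03 to -0.20 log2 units and that of the members to -7.57. The 44 members were called lower under every alternative run, which the rule itself fixes and which is no sign of stability. Of all tested probes, 37.0% were called lower, 11.6% under the spike-in scaling, 28.7% with the slide block added to it, and 25.8% to 37.5% under the other settings that can hold a member. Of the 6 outside probes, 4 were called lower under every alternative that could hold them. Among these, A_95_P005351 and A_95_P008156 were well above background on no ALT301 array, so nothing is read from their calls. The filter on all 6 arrays left none of these 4. It held only the outside probes A_95_P113789 (not called) and A_95_P192872 (higher). The call of A_95_P192872 as higher was lost under the spike-in scaling, with the slide block (adjusted p = 0.691) and without it (adjusted p = 0.891), and held under the other alternatives (adjusted p = 0.00191 to 0.0249). The replicate block changed no call among the members (44) or the outside probes (4 lower, 1 higher). Under normexp with an offset of 50, which shrinks differences of dim probes by itself, their median difference was -4.08. The filter on all 6 arrays can hold no member and was not run for the list; normexp used the median spot signal. No ALT301 value of the list was well above background, so each difference between the lines is stated as a lower bound.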
